A study of Mus musculus with 48 samples.

Results

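The genes described here are 10 markers of tissue-resident macrophages and of Kupffer cells, the resident macrophages of the liver: Clec4f, Timd4, Vsig4, Marco, Cd5l, Cd163, Folr2, Mrc1, Lyve1 and Adgre1. They were taken by name, as the rows of the count table whose Ensembl identifier carries 1 of these symbols, and all 10 were found among 56748 rows. These 10 genes and the other gene lists below were chosen with earlier results of these data known. The 10 genes were followed in 48 RNA-seq libraries from male mice, taken from the liver, the brown fat (BAT) and the epididymal white fat (eWAT). The 12 groups of 4 libraries combined these 3 tissues with 2 genotypes and 2 housing temperatures. The genotypes were hepAGT-/- mice, with a deletion of angiotensinogen in hepatocytes, and their hepAGT+/+ littermates, called knockout and wild type below. Angiotensinogen is the precursor of the angiotensin peptides. Every group had been on a Western diet for 12 weeks, with 21% milk fat and 0.2% cholesterol, so no group shows these genes on a standard diet. Housing was at room temperature (20 to 22 °C) or at thermoneutrality (30 °C), where a mouse needs no extra heat production. How the deletion was made, the ages of the mice and whether a replicate number stands for 1 animal are not given in the sources used here. A p-value below therefore sets a difference against the spread between libraries, estimated over all libraries of the fit.

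Kupffer cells sit in the liver sinusoids and take up bacteria, ageing red cells and modified lipoproteins from the blood. Clec4f is a lectin found in Kupffer cells and used as their defining mark in mice, Timd4 a phosphatidylserine receptor for dying cells that marks long-lived resident macrophages, Vsig4 a complement receptor, Marco a scavenger receptor, and Cd5l (also called AIM) a secreted protein of macrophages. Cd163, the haemoglobin-haptoglobin receptor, Folr2, a folate receptor, Mrc1, the mannose receptor, and Lyve1, a hyaluronan receptor, mark resident macrophages around the vessels of many organs, fat among them. Lyve1 is also made by lymphatic and liver sinusoidal endothelium and Mrc1 by liver sinusoidal endothelium, so these genes do not report macrophages alone. Adgre1 encodes F4/80, a general surface marker of mouse macrophages.

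Liver identity of a resident macrophage is set by factors that bind near such genes, among them PU.1, MAF-family factors and nuclear receptors such as LXR alpha. The 200 bases before the start site are shown for 4 genes: a pair of liver-high genes with motif matches (Timd4 and Cd5l), a liver-high gene without one (Vsig4) and a gene highest in eWAT without one (Cd163). The sequences come from RefSeq on GRCm38.p6 and run 5′ to 3′ on the strand of the gene, with motif matches in capitals. Timd4 lies at chr11:46810599-46810798 (plus strand), Cd5l at chr3:87357681-87357880 (plus), Vsig4 at chrX:96293439-96293638 (minus) and Cd163 at chr6:124304451-124304650 (plus).
Timd4: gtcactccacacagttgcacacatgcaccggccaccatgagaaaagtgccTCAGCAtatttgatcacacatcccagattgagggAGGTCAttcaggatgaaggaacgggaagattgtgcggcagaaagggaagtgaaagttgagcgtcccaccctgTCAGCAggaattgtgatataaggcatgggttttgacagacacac
Cd5l: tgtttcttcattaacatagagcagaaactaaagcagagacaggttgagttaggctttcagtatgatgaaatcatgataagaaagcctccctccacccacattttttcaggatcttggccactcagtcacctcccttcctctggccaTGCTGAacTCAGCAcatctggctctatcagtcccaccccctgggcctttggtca
Vsig4: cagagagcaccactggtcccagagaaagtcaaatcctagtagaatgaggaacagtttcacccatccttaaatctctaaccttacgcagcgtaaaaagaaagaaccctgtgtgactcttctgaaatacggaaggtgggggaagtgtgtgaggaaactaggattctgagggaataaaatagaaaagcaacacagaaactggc
Cd163: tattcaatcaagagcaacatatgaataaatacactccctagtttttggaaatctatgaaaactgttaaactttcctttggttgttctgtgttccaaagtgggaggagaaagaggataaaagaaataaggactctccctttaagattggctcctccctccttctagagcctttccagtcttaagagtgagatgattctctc
Letters were searched on both strands: GAGGAAGT for PU.1, present in 2.06% of 32851 promoter windows of the same length, TGCTGA for a MAF half-site (13.2%), AGGTCA for a nuclear receptor half-site (11.4%) and CACGTG for an E-box (5.26%). Timd4 held MAF half-sites at -150 and -44 from the start site and a nuclear receptor half-site at -116. Cd5l held a pair of MAF half-sites at -54 and -46, on opposite strands. Clec4f, whose window is not printed, held a MAF half-site at -199 and a nuclear receptor half-site at -22, and Folr2 held a MAF half-site at -19 of 1 of its 2 start sites. No match was found for Marco and Mrc1 either, and the windows of Lyve1 and Adgre1 were not analysed here. A match says only that these letters are in the window.

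The table held between 23.7 M and 43.7 M counts (M for mega) per library, and 10, 9 and 10 of the 10 genes passed the filter on low counts in liver, BAT and eWAT. Marco was the gene that failed it in BAT. Levels are CPM, the counts per M counts of the library with TMM scaling for differences in library composition, and fold changes are log2 changes from edgeR's quasi-likelihood test with p-values adjusted over all genes tested (Benjamini-Hochberg). The genotype labels were checked on Agt, which encodes angiotensinogen. At room temperature Agt in liver was 424 ± 88.3 CPM in wild type and 194 ± 31.6 CPM in knockout (SD, n = 4 each), and at thermoneutrality 482 ± 99.2 and 193 ± 40.6 CPM. Every knockout liver lay below every wild-type liver, with log2 changes of -1.14 (adjusted p = 0.0096) and -1.29 (adjusted p = 0.00113). Agt was thus lowered but not absent in knockout livers, and the source of the rest was not tested. In eWAT Agt averaged 74.4 CPM in wild type and 125 CPM in knockout at room temperature. At thermoneutrality it averaged 53.1 and 137 CPM there. Hepatocyte markers summed to between 57198 and 105720 CPM in liver, white adipocyte markers to between 6236 and 9344 CPM in eWAT, and brown adipocyte markers to between 2939 and 17997 CPM in BAT. Fat libraries also held hepatocyte markers, at 4.20 to 2041 CPM in BAT and 18.7 to 2952 CPM in eWAT.

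The genes fell into a liver-high set and a set that was highest in eWAT, called eWAT-high. Clec4f, Cd5l, Vsig4, Marco and Timd4 were higher in liver than in eWAT, and Cd163, Folr2, Mrc1, Lyve1 and Adgre1 were higher in eWAT than in liver. All 10 differences were called, where 73.8% of all genes tested were (35.5% higher in liver, 38.3% lower). BAT had the lowest mean of each of the 10 genes. All 10 were called higher in liver than in BAT (68.6% of all genes called, 31.6% higher), and 8 were called lower in BAT than in eWAT (60.3% called, 31.1% lower), Clec4f and Cd5l being the exceptions. In a bulk sample, fewer cells of a type and less RNA per cell cannot be told apart.

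Clec4f averaged 125 CPM over the 16 liver libraries, against 0.622 CPM in BAT and 0.907 CPM in eWAT. The lowest liver value was 71.4 CPM and the highest fat value 3.99 CPM, so the tissues did not overlap. The liver mean was 202 times that of BAT and 138 times that of eWAT. Cd5l followed with 134 CPM in liver, 1.15 in BAT and 1.93 in eWAT, also without overlap. Vsig4 averaged 28.4 CPM in liver, 0.295 in BAT and 2.33 in eWAT, and its lowest liver library (14.8 CPM) still exceeded its highest eWAT library (5.83 CPM). Timd4 and Marco were less restricted. Timd4 averaged 8.41 CPM in liver and 2.28 in eWAT, and Marco 10.6 and 1.78 CPM, and both overlapped between these tissues. Marco varied most among livers relative to its mean (0.385 to 65.7 CPM, a coefficient of variation of 153%).

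Of the eWAT-high genes, Cd163 separated eWAT from liver in every library, at 48.9 against 12.0 CPM on average, a ratio of 4.09. Mrc1 averaged 103 CPM in eWAT, 52.5 in liver and 18.0 in BAT. Its lowest liver library (35.9 CPM) lay just above its highest BAT library (34.3 CPM). Folr2 averaged 39.6, 12.5 and 3.58 CPM in eWAT, liver and BAT, and Lyve1 25.9, 8.72 and 3.16 CPM. Adgre1 averaged 37.5, 18.2 and 8.31 CPM, and overlapped in each pair of tissues. Cd163 came closest to equal levels in liver and BAT, at 12.0 and 8.84 CPM with a log2 difference of 0.61 (adjusted p = 0.00776).

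**Figure D1:**
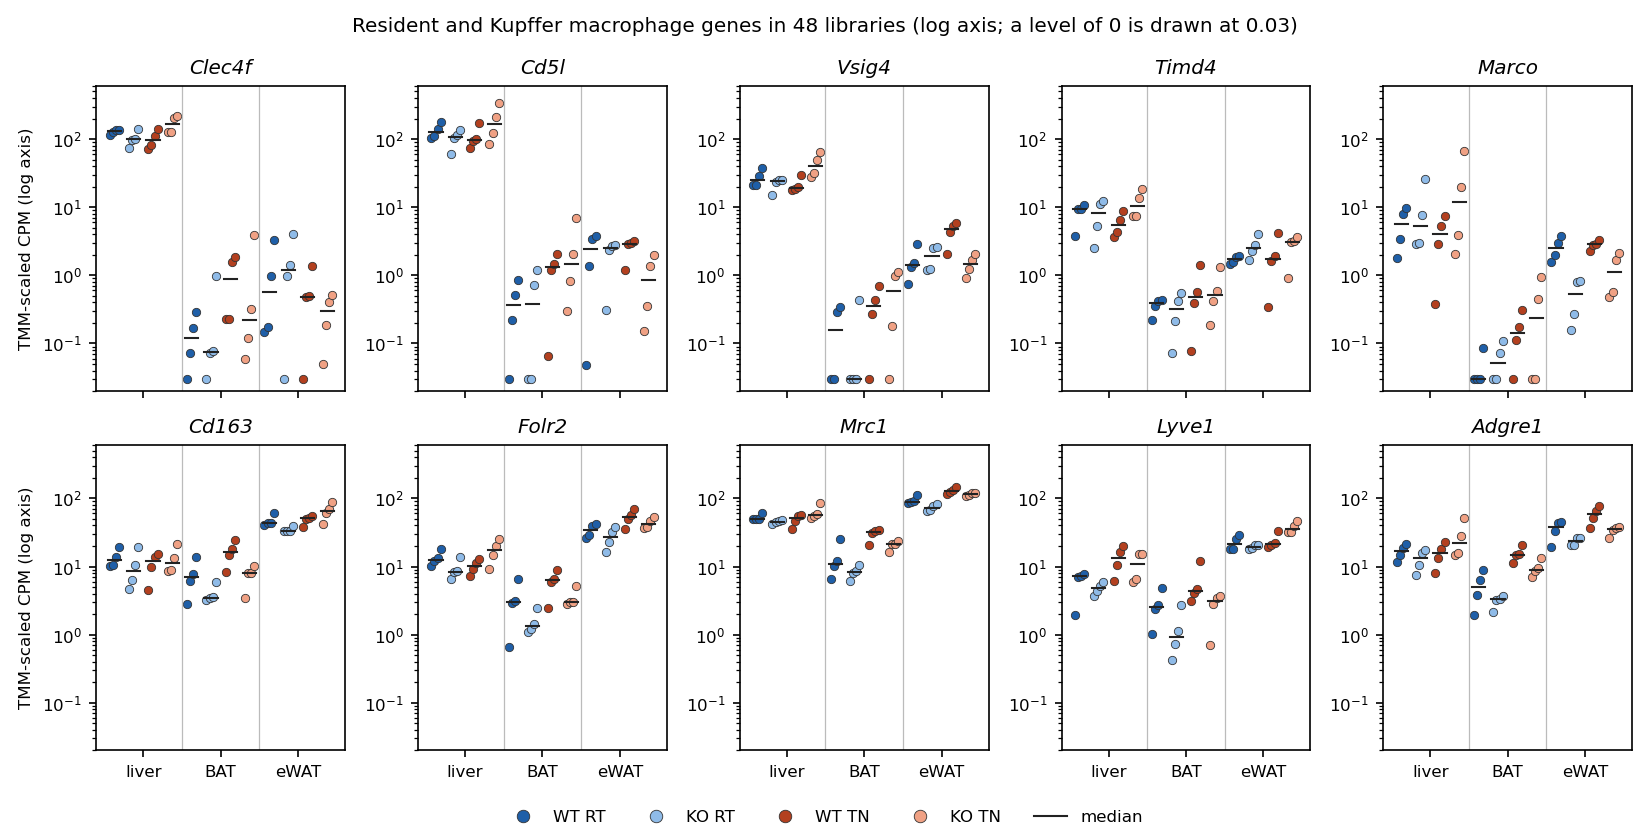
TMM-scaled CPM (log axis) of the 10 genes in each of the 48 libraries, by tissue and coloured by genotype and housing, with group medians as lines. The upper 5 genes are highest in liver (Clec4f from 71.4 CPM in liver to at most 3.99 in fat) and the lower 5 in eWAT.

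Divided by the length of the gene's exons, the order of levels differed between tissues. In liver, Cd5l (65.7 CPM per kb) and Clec4f (50.7) led, followed by Vsig4 (19.2), Mrc1 (8.23), Folr2 (8.09), Adgre1 (5.62), Marco (5.49), Timd4 (3.87), Lyve1 (2.99) and Cd163 (2.19). The steps from Clec4f to Vsig4 and from Vsig4 to Mrc1 held in all 16 libraries and exceeded the larger SD of the pair; the other steps in the liver order did not exceed it. In eWAT, Folr2 (25.6 CPM per kb) led, then Mrc1 (16.2), Adgre1 (11.6), Cd163 (8.96) and Lyve1 (8.89). A step from Lyve1 down to Vsig4 (1.57) held in all 16 eWAT libraries. Below Vsig4 came Timd4 (1.05), Cd5l (0.949), Marco (0.922) and Clec4f (0.367), and no step between neighbours there exceeded the larger SD of the pair. In BAT no step exceeded the larger SD, from Mrc1 (2.83) and Adgre1 (2.57) at the top to Marco (0.0725) at the bottom. Clec4f was thus second of 10 in liver and last in eWAT.

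In liver, 1 of the 10 genes, the complement receptor Vsig4, was called higher in knockout than in wild-type mice at thermoneutrality, and the other 9 did not pass the test. At room temperature none did. Vsig4 measured 17.7, 18.3, 19.5 and 29.5 CPM in the wild-type livers at thermoneutrality and 27.7, 31.2, 49.0 and 64.6 CPM in the knockout livers. A single wild-type library reached into the knockout range. Vsig4 rose by a log2 change of 1.06 ± 0.28 (SE; adjusted p = 0.0489, edgeR's quasi-likelihood test, n = 4 each), and in this comparison 3.18% of all genes were called, 1.34% higher. The call was narrow: with RLE scaling the adjusted p was 0.0511, without the low-count filter 0.0975, and it was lost in 10 of the 16 fits that left out 1 liver library. Without knockout library 4 of that group the adjusted p was 0.141.

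Clec4f, the Kupffer cell lectin, measured 71.4, 82.1, 110 and 142 CPM in wild type and 129, 129, 201 and 219 CPM in knockout at thermoneutrality, a log2 difference of 0.78 ± 0.23 (adjusted p = 0.0685). Cd5l measured 72.7, 92.2, 101 and 170 CPM in wild type and 83.1, 123, 212 and 340 CPM in knockout (log2 difference 0.85, adjusted p = 0.315). In both, the upper knockout libraries lay above all wild-type libraries and the lower ones among them. Timd4 measured 3.60, 4.38, 6.41 and 8.77 CPM against 7.33, 7.53, 13.5 and 18.4 CPM (log2 difference 1.06, adjusted p = 0.247). Marco, the scavenger receptor, was the most uneven, at 0.385, 2.88, 5.23 and 7.32 CPM in wild type and 2.05, 3.91, 19.5 and 65.7 CPM in knockout. Its log2 difference of 2.59 carried a standard error of 1.18 and an adjusted p of 0.276.

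Among the vessel-associated and general markers, Folr2 measured 7.29 to 12.8 CPM in wild type and 9.15 to 25.01 CPM in knockout (log2 difference 0.81, adjusted p = 0.119). Mrc1 measured 35.9 to 56.7 and 51.5 to 86.7 CPM (0.41, adjusted p = 0.172), and Adgre1 8.16 to 22.8 and 14.6 to 51.3 CPM (0.87, adjusted p = 0.29). Cd163 and Lyve1 had the smallest differences, at 0.29 and -0.26. In all, 9 of the 10 log2 differences were positive, with a median of 0.83 beside 0.052 over all genes. An unadjusted p under 0.05 was found for 6, and the share of all genes at that level was not counted. Levels of these genes, Lyve1 apart, were correlated across livers, so they are not separate results. No gene had groups that failed to overlap, against 13% of all genes.

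The knockout livers were not alike. Knockout library 5 at thermoneutrality was the highest of its group for 7 of the 10 genes and among the 2 highest for all 10, and library 4 was among the 2 highest for 8. Knockout library 2 was the lowest for 6. Wild-type library 7 was the lowest of its group for 8 of the 10. Leaving out 1 liver library at a time moved the median log2 difference of the 10 genes between 0.49 and 1.05. Markers of liver sinusoidal endothelium (Stab2, Clec4g, Oit3, Gpr182, Dnase1l3, Fcgr2b and Bmp2, none at 0) summed to 239 to 333 CPM in the wild-type and 272 to 431 CPM in the knockout livers at thermoneutrality, library 4 being highest, and none of the 7 was called. Neutrophil markers summed to 1.499 to 3.82 CPM in wild type and 4.98 to 6.38 CPM in knockout, with Ly6g at 0 in both groups and 1 of the 4 markers tested called higher. The part of either in the macrophage differences was not tested.

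**Figure D2:**
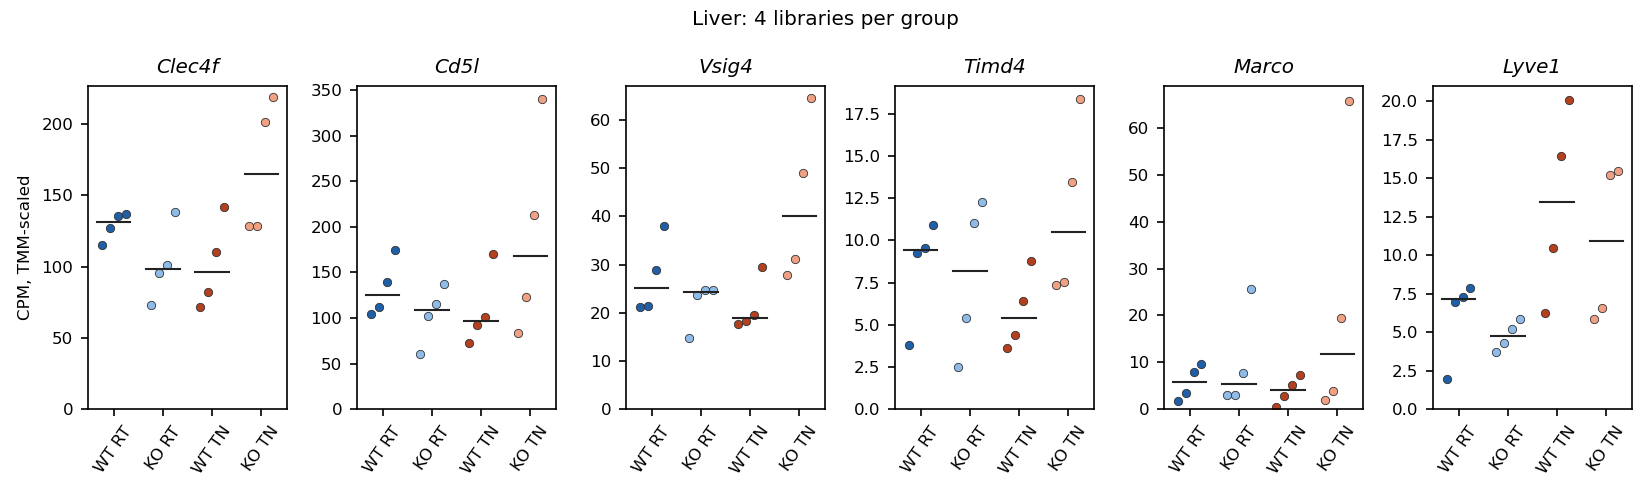
TMM-scaled CPM of Clec4f, Cd5l, Vsig4, Timd4, Marco and Lyve1 in the 16 liver libraries, by genotype and housing, each point 1 library. The knockout group at thermoneutrality holds the highest Vsig4 value (64.6 CPM) and the highest Marco value (65.7 CPM).

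At room temperature 9 of the 10 genes had lower fitted levels in knockout than in wild-type liver, and none passed the test (0.0853% of all genes did). The lowest adjusted p was 0.559 and no unadjusted p was under 0.05. Clec4f measured 115, 127, 135 and 137 CPM in wild type and 73.3, 95.7, 101 and 139 CPM in knockout. The wild-type values were close together, and 3 of the 4 knockout values lay below them. Mrc1 was the 1 gene without overlap, at 49.0 to 60.0 CPM in wild type and 42.5 to 48.1 CPM in knockout, where 2.43% of all genes did not overlap and were lower in knockout. Its log2 difference was -0.21 (adjusted p = 0.715). The median over the 10 genes was -0.34, beside 0.016 over all genes.

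Warm housing went with higher fitted levels of all 10 genes in knockout liver and lower fitted levels of 9 of the 10 in wild-type liver. None was called in either (0.114% and 0.0227% of all genes called). In knockout livers the median log2 difference between thermoneutrality and room temperature was 0.90. An unadjusted p under 0.05 was found for 6 genes, a share not counted over all genes. Vsig4 (14.8 to 24.8 CPM at room temperature, 27.7 to 64.6 CPM at thermoneutrality) and Mrc1 (42.5 to 48.1 and 51.5 to 86.7 CPM) did not overlap, and 4.13% of all genes were likewise higher in every warm library. In wild-type livers the median was -0.36. The genotype-by-housing interaction was positive for all 10 genes, with a median of 1.19. It was largest for Marco (1.82) and Vsig4 (1.39), and no gene of the whole table passed the test of it. The unadjusted p was under 0.05 for 4 of the 10, a share not counted over all genes. The lowest adjusted p among the 10 was 0.457 (edgeR's quasi-likelihood test). These comparisons share libraries, so their signs are not independent of each other.

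Lyve1 did not follow the others. It measured 1.94, 6.99, 7.31 and 7.89 CPM in wild-type livers at room temperature and 6.22, 10.4, 16.4 and 20.1 CPM at thermoneutrality. In knockout livers it measured 3.70 to 5.88 CPM and 5.87 to 15.5 CPM. The warm groups thus had the higher levels in both genotypes, with a log2 difference of 1.15 ± 0.30 averaged over genotype (adjusted p = 0.108), and none of the 10 genes was called in this average (0.279% of all genes). Across the 16 livers its log2 level had a median Pearson r of 0.02 with the other 9 genes, against 0.83 for Clec4f and 0.78 for Cd5l. Cd163 was also apart, with a median r of 0.38. In wild-type livers, the lymphatic endothelial markers summed to 135 to 176 CPM at room temperature and 195 to 249 CPM at thermoneutrality. In knockout livers they summed to 112 to 199 and 105 to 189 CPM. Most of the sum was Prox1 (81.1 to 224 CPM over the 16 livers, median 140), followed by Flt4 (median 27.1 CPM). Mmrn1, Ccl21a and Pdpn had medians of 0.33, 0.59 and 0.31 CPM, so the sum says little of lymphatic endothelium in liver. Whether Lyve1 followed any of these markers was not tested.

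Other macrophage genes in the same livers were counted by list, to be read beside the 3.18% of all genes called (1.34% higher). At thermoneutrality, knockout against wild type, 1 of 12 other Kupffer cell genes was called higher: Clec1b, a lectin that binds podoplanin, rose by a log2 change of 0.88 (adjusted p = 0.0473), from 10.9 to 19.4 CPM on average. Of 14 pan-macrophage genes, 1 was called, the adaptor Tyrobp (1.41, adjusted p = 0.0137), and all 14 log2 differences were positive with a median of 0.71. Of 9 monocyte and recruited macrophage genes tested, 1 was called, the lysozyme gene Lyz2 (1.21, adjusted p = 0.0117). None of 10 lipid-associated macrophage genes, 6 fat and perivascular resident genes or 7 growth and niche signals was called there.

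In BAT, 4 of the 9 genes tested, Adgre1, Mrc1, Folr2 and Cd163, rose at thermoneutrality when averaged over genotype, where 38.5% of all genes were called, 19.5% higher. The other 5 had positive log2 differences too, with p-values that missed the threshold. The median of the 9 was 1.20, beside 0.087 over all genes.

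Adgre1, the gene of F4/80, measured 1.95, 3.83, 6.34 and 8.84 CPM in wild-type BAT at room temperature and 11.2, 14.5, 15.1 and 20.8 CPM at thermoneutrality. In knockout BAT it measured 2.17, 3.23, 3.35 and 3.64 CPM and 6.92, 8.47, 9.51 and 13.2 CPM. Warm and cool groups did not overlap within either genotype. The log2 change was 1.55 ± 0.35 in wild type (adjusted p = 0.00266), 1.59 ± 0.35 in knockout (0.00525) and 1.57 ± 0.25 averaged (7.98e-05).

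Mrc1, the mannose receptor, measured 6.48, 10.1, 12.0 and 25.5 CPM in wild-type BAT at room temperature and 20.5, 31.4, 32.7 and 34.3 CPM at thermoneutrality. Knockout BAT had 6.18, 7.99, 8.60 and 10.6 CPM and 16.2, 21.1, 21.3 and 23.9 CPM. The knockout groups were apart, and in wild type a single cool library (replicate 15) reached into the warm range. The log2 change was 1.13 ± 0.32 in wild type, 1.27 ± 0.32 in knockout and 1.20 ± 0.22 averaged (adjusted p = 0.0116, 0.0116 and 0.000443).

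Mrc1 and Adgre1 were the 2 genes called in each genotype, where 32.5% of all genes were called in wild type (15.9% higher) and 15.2% in knockout (6.64% higher). Groups did not overlap for 1 gene in wild type (Adgre1) and for 3 in knockout (Folr2, Mrc1 and Adgre1), the warm group being higher, as it was without overlap for 13% and 10.4% of all genes. Among the genes called in the average, Cd163 measured 2.82, 6.17, 7.88 and 13.6 CPM in wild-type BAT at room temperature and 8.28, 14.9, 17.9 and 24.5 CPM at thermoneutrality. Knockout BAT had 3.25, 3.42, 3.54 and 5.84 CPM and 3.48, 7.95, 7.95 and 10.0 CPM. The groups overlapped in both genotypes, and the averaged log2 change was 0.97 ± 0.30 (adjusted p = 0.0183). Folr2 ranged from 0.652 to 6.66 CPM in the cool and 2.48 to 8.78 CPM in the warm wild-type group, and from 1.08 to 2.45 and 2.78 to 5.22 CPM in knockout (0.99 ± 0.36, adjusted p = 0.0373). The call of Folr2 was lost in 8 of 16 fits that left out a library, with an adjusted p of up to 0.0808 (without warm knockout library 2). Lyve1 had a log2 difference of 1.09 (adjusted p = 0.0601).

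**Figure D3:**
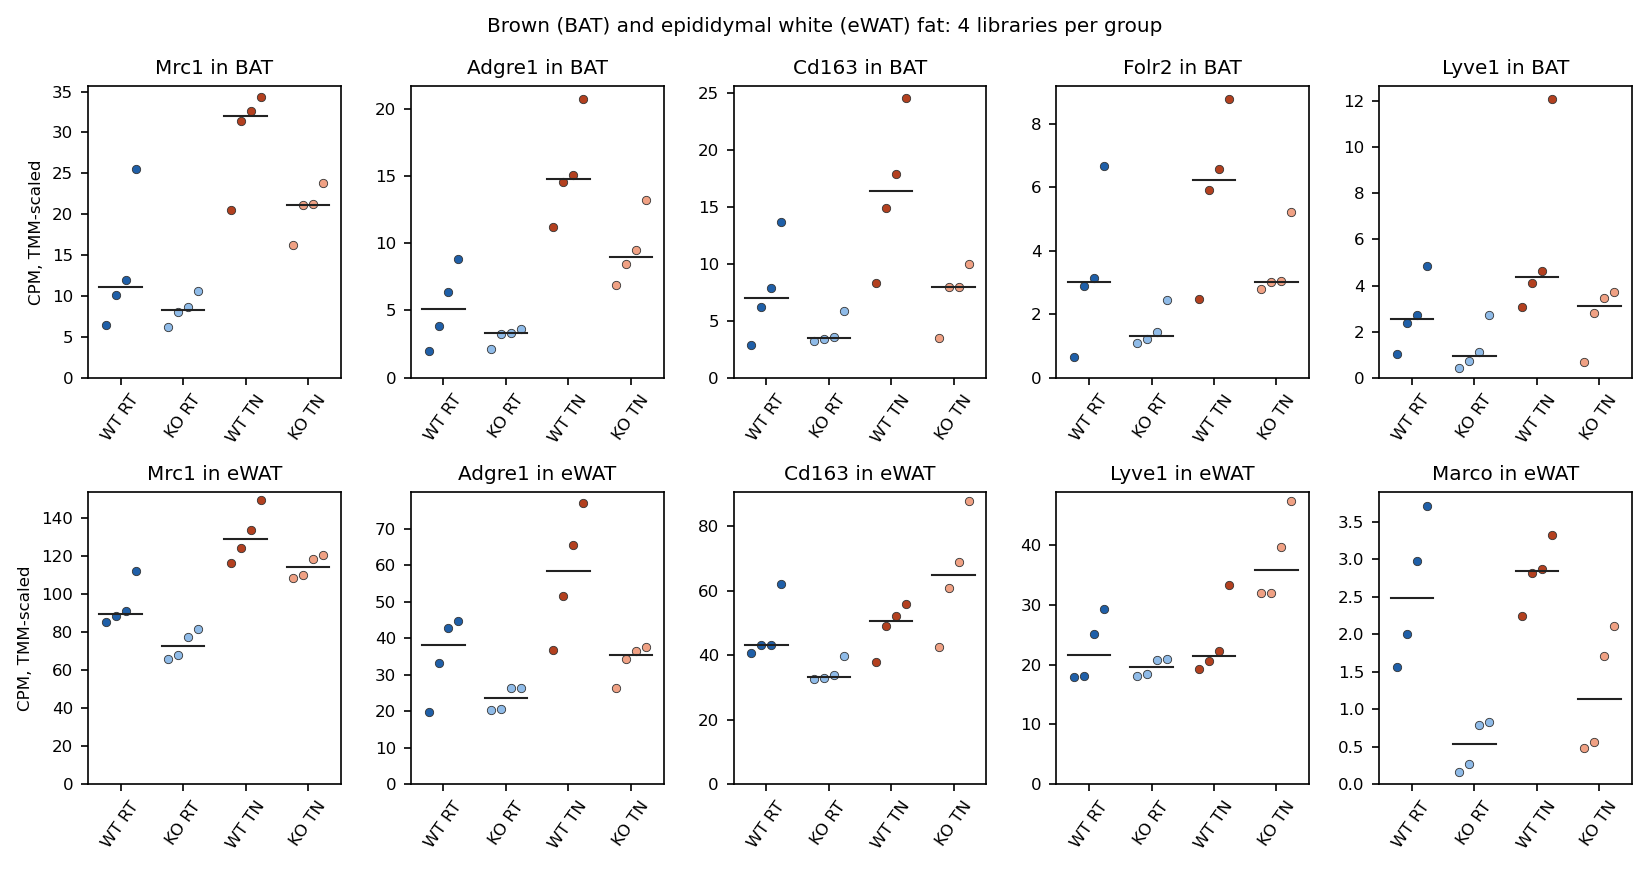
TMM-scaled CPM in the BAT and eWAT libraries, by genotype and housing, each point 1 library. BAT is shown for Mrc1, Adgre1, Cd163, Folr2 and Lyve1, and eWAT for Mrc1, Adgre1, Cd163, Lyve1 and Marco. Adgre1 in BAT lies between 1.95 and 8.84 CPM in cool and between 6.92 and 20.8 CPM in warm housing.

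The scaling mattered in BAT, where the brown fat markers also fell: Ucp1, Cidea, Cox8b and Ppargc1a together took 8352 to 17997 CPM at room temperature and 2939 to 7135 CPM at thermoneutrality, and 3 of the 4 were called lower. With library totals alone, the median of all genes moved from 0.087 to 0.55, the median of the 9 macrophage genes from 1.20 to 1.70, and 7 of them were called. Endothelial markers moved as well: Pecam1, Cdh5, Kdr, Tie1 and Esam summed to 188 to 1071 CPM in cool and 281 to 1105 CPM in warm BAT. Of these 5, 4 were called higher. Only 1 was called when cool knockout library 19, cool wild-type library 17 or 18, or warm knockout library 2 was left out. None of these markers was at 0, and their part in the macrophage result was not tested.

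Other macrophage lists were counted in BAT in the same averaged comparison. All 14 pan-macrophage genes were called higher, with a median log2 change of 1.33, led by Mpeg1 (perforin-2; 1.87), Laptm5 (1.77) and the Fc receptor Fcgr1 (1.56). Of 11 fat and perivascular resident macrophage genes 9 rose, among them the chemokine Ccl8 (2.37), the lectin Cd209g (1.99) and Gas6 (1.21), a ligand of the TAM receptors. Of 10 lipid-associated macrophage genes 9 rose, led by Mmp12 (4.02), Itgax (2.73) and Atp6v0d2 (2.58), and Fabp5, a fatty acid binding protein made by other cells too, fell by 1.90. Of 9 monocyte and recruited macrophage genes 6 rose, led by Ccl2 (2.44), Ccl7 (2.43) and Ccr2 (2.10). Of 12 other Kupffer cell genes 5 rose, with Cd300ld (1.76), Adgre4 (1.32) and Slc11a1 (1.31) ahead, and Nr1h3, which encodes LXR alpha, fell by 0.53. All 5 growth and niche signals tested rose, among them the macrophage growth factor Csf1 (1.09), the chemokine Cx3cl1 (1.41) and the Notch ligand Dll4 (1.16). These shares stand beside the 38.5% of all genes called.

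Between genotypes no gene of the 10 was called in BAT, at room temperature (0.0887% of all genes called), at thermoneutrality or averaged over housing (0 genes called in both by edgeR; DESeq2 called 1 of the 10 in the average). The 5 eWAT-high genes all had lower fitted levels in knockout, from -0.61 for Mrc1 to -1.13 for Lyve1 in the average. Each had an unadjusted p under 0.05, a share not counted over all genes. Cd163 came closest to the threshold (-1.04 ± 0.30, adjusted p = 0.189). Without wild-type library 12 at room temperature, the lowest of its group in Mrc1, Adgre1, Cd163, Folr2 and Lyve1, 3 genes were called in the average and 3 at room temperature.

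In eWAT the knockout had lower levels of the scavenger receptor Marco, of Adgre1 and of Mrc1, and warm housing higher levels of Mrc1. Marco measured 1.56, 2.00, 2.98 and 3.71 CPM in wild-type eWAT at room temperature and 0.157, 0.272, 0.786 and 0.83 CPM in knockout. At thermoneutrality it measured 2.25, 2.82, 2.87 and 3.33 CPM in wild type and 0.479, 0.567, 1.71 and 2.11 CPM in knockout. Every wild-type library lay above every knockout library at both temperatures. The log2 change was -2.30 ± 0.55 at room temperature (adjusted p = 0.0232) and -1.76 ± 0.38 averaged over housing (0.00676), and the difference at thermoneutrality was -1.22 ± 0.52 (0.302). Marco was the 1 gene of the 10 called at room temperature, where 4.34% of all genes were called, 3.13% lower, and its call was lost in 4 of 16 fits that left out a library: cool knockout libraries 9 and 10 and cool wild-type libraries 13 and 18. Averaged over housing its call was kept in all 16.

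Adgre1 measured 19.6, 33.1, 42.9 and 44.7 CPM in wild-type and 20.4, 20.7, 26.4 and 26.4 CPM in knockout eWAT at room temperature, and 36.7, 51.5, 65.6 and 77.1 against 26.5, 34.4, 36.6 and 37.6 CPM at thermoneutrality. At each temperature 3 of the 4 wild-type libraries lay above every knockout library; the fourth was below all of them at room temperature and within their range at thermoneutrality. Averaged over housing it fell by 0.67 on the log2 scale (SE 0.17, adjusted p = 0.0225). Mrc1 measured 85.4, 88.2, 90.9 and 112 CPM in wild type and 65.7, 68.1, 77.3 and 81.7 CPM in knockout at room temperature. It measured 116, 124, 134 and 149 against 109, 110, 118 and 120 CPM at thermoneutrality. The room temperature groups did not overlap and the thermoneutral groups did. The averaged change of Mrc1 was small, -0.27 ± 0.08 (adjusted p = 0.035), and its call was lost in 11 of 16 fits that left out a library; that of Adgre1 was lost in 7. These 3 of 10 genes stand beside 8.46% of all genes called in the average, 5.72% lower.

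Groups did not overlap for 3 genes at room temperature (Marco, Cd163 and Mrc1, all lower in knockout, as were 7.13% of all genes) and for 2 at thermoneutrality (Vsig4 and Marco, both lower, as were 4.55%), where none of the 10 was called (0.586% of all genes). Vsig4 measured 2.05, 4.36, 5.24 and 5.83 CPM in warm wild-type eWAT and 0.907, 1.22, 1.66 and 2.02 CPM in knockout. Its difference of -1.59 ± 0.43 had an adjusted p of 0.0901, and at room temperature the difference was 0.23. Timd4 pointed the other way, at 0.66 and 0.42 in the cool and warm groups with adjusted p of 0.596 and 0.79.

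In knockout eWAT, 3 of the 10 genes were called higher in warm housing (1.74% of all genes called, 1.02% higher). Mrc1 went from 65.7 to 81.7 CPM at room temperature to 109 to 120 CPM (0.63 ± 0.11, adjusted p = 0.0184). Lyve1 went from 18.1, 18.4, 20.7 and 20.9 CPM to 32.0, 32.0, 39.6 and 47.3 CPM (0.93 ± 0.19, adjusted p = 0.0266), and Cd163 from 32.7, 32.9, 33.7 and 39.7 CPM to 42.4, 60.8, 68.8 and 87.7 CPM (0.88 ± 0.19, adjusted p = 0.031). None of these 3 overlapped between temperatures, nor did Adgre1, where 6.1% of all genes were higher in every warm library. Fitted on the 8 libraries compared alone, none of the 3 was called. Leaving out 1 library lost the call of Cd163 in 5, of Lyve1 in 4 and of Mrc1 in 3 of 16 fits (adjusted p up to 0.125), and 0 of the 10 were called without cool knockout library 10 or 19 or warm knockout library 3.

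In wild-type eWAT, Lyve1 measured 18.0, 18.1, 25.2 and 29.3 CPM in the cool and 19.2, 20.5, 22.2 and 33.3 CPM in the warm group (log2 difference 0.07), and Cd163 40.6, 43.0, 43.3 and 62.0 against 37.8, 49.1, 52.3 and 56.0 CPM (0.04). The ranges covered each other. Mrc1 was higher in every warm wild-type library (0.47, adjusted p = 0.178), as were 2.39% of all genes. In wild-type eWAT no gene of the whole table was called (0 of 18933 by edgeR), while DESeq2 called 1 of the 10. In edgeR 4 of the 10 had an unadjusted p under 0.05, a share not counted over all genes. The difference between genotypes itself was tested by the interaction: 0.86 ± 0.27 for Lyve1 and 0.84 ± 0.27 for Cd163, with adjusted p of 0.564 and 0.565. Averaged over genotype, Mrc1 alone of the 10 was called (0.55 ± 0.08, adjusted p = 0.00484; 2.22% of all genes called, 1.49% higher).

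In the same comparison of genotypes averaged over housing (8.46% of all genes called, 5.72% lower), 10 of 14 pan-macrophage genes were called lower in knockout eWAT (median -0.50), among them Mpeg1 (-1.004), the lysosomal protein gene Cd68 (-0.92) and Fcgr1 (-0.79). Of 10 lipid-associated macrophage genes 6 were called lower with a median of -1.79, led by the elastase Mmp12 (-2.93), the proton pump subunit Atp6v0d2 (-2.72) and Gpnmb (-2.16). Of 10 monocyte and recruited macrophage genes 5 were called lower, Ccl7 (-0.94), Ccl2 (-0.82) and the integrin Itgam (-0.66) first, and 2 of 10 without warm wild-type library 6. Of 12 other Kupffer cell genes 3 were called lower: the haem oxygenase gene Hmox1 (-1.004), the complement gene C6 (-0.78) and Cd300ld (-0.76). Of 11 fat and perivascular resident macrophage genes 2 were called lower, Ccl8 (-1.69) and Cbr2 (-0.48), and none of 6 growth and niche signals. Between temperatures, 10 of 14 pan-macrophage genes were called higher at thermoneutrality in the average (median 0.58, beside 2.22% of all genes called and 1.49% higher), but 2 to 6 of them without 1 of 8 libraries, the fewest without warm wild-type library 6. Also called higher there were 2 of 11 fat and perivascular resident genes, the lectin Cd209f (0.86) and the coagulation factor F13a1 (0.55), 3 of 10 monocyte and recruited macrophage genes, Ccl7 (0.93), Ccr2 (0.58) and Lyz2 (0.56), and 1 of 12 other Kupffer cell genes, Cd300ld (0.54). The monocyte count was 0 without any 1 of 6 libraries: cool knockout 19, cool wild-type 12 and 13, warm knockout 4, and warm wild-type 6 and 7.

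**Figure D4:**
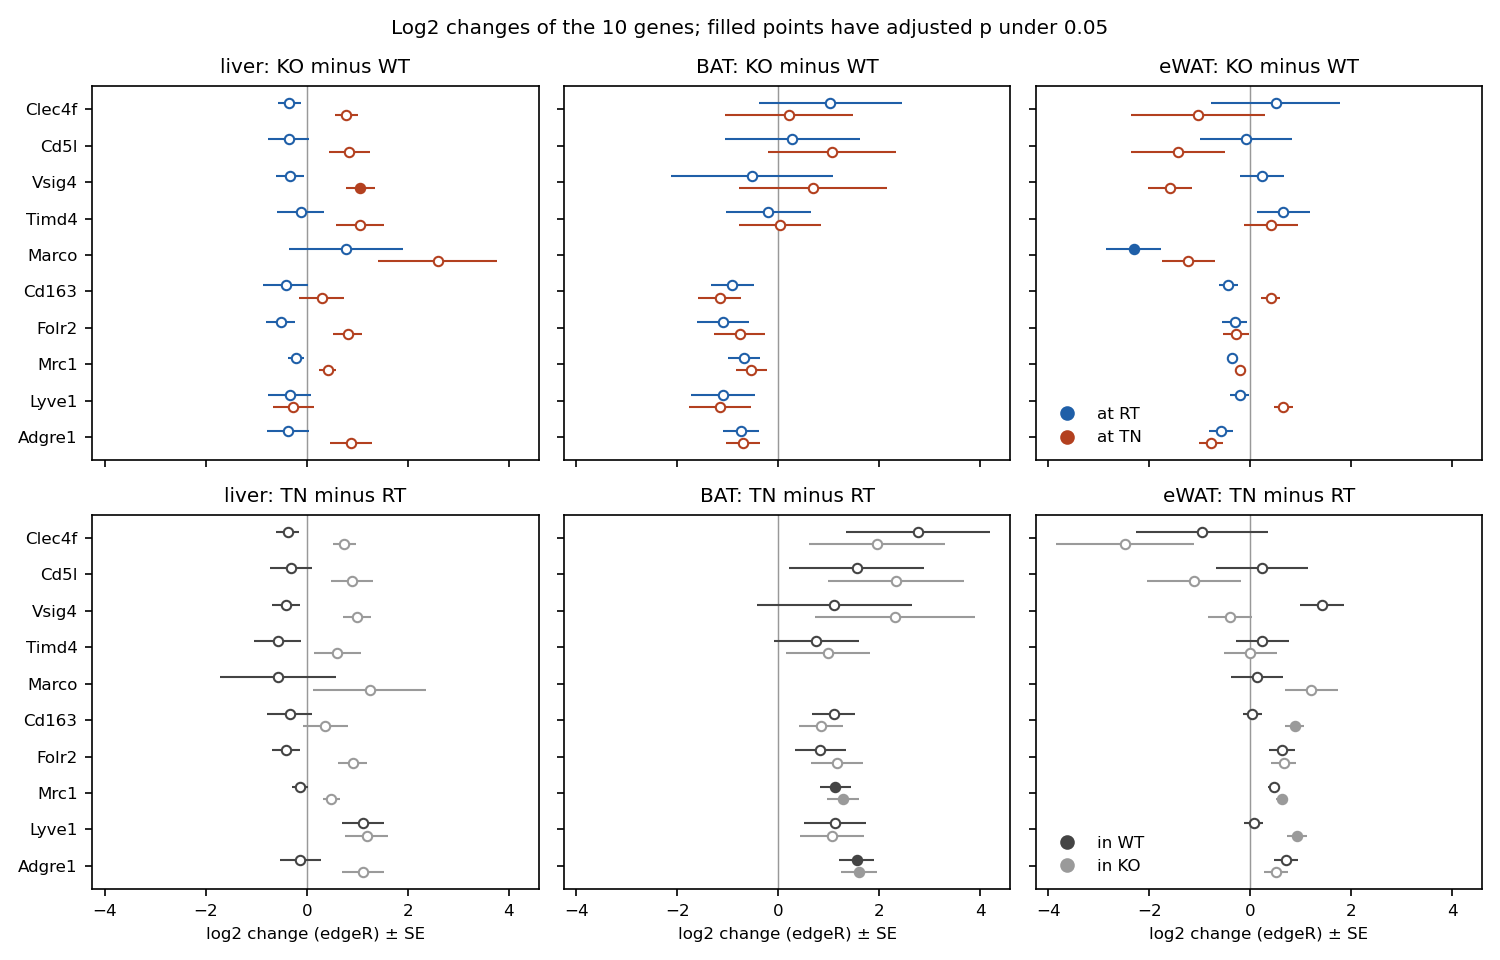
Log2 changes of the 10 genes with standard errors, for knockout against wild type and for thermoneutrality against room temperature in each tissue, filled where the adjusted p was under 0.05. The filled housing points are in BAT and eWAT. The filled genotype points are Vsig4 in liver at thermoneutrality (1.06) and Marco in eWAT at room temperature. Comparisons averaged over housing or genotype are not drawn.

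The effects were compared between tissues in 1 fit over all 48 libraries. The effect of warm housing on Mrc1 was larger in BAT than in liver by 1.03 ± 0.22 and larger than in eWAT by 0.66 ± 0.22, and that on Adgre1 was larger in BAT than in liver by 1.09 ± 0.36 (written as BAT minus the other tissue; adjusted p = 0.00065, 0.0334 and 0.0334). Adgre1 in BAT against eWAT missed the threshold (0.97, adjusted p = 0.0605). Of the 10 genes, 2 were called in BAT against liver (16.8% of all genes) and 2 in BAT against eWAT (16.5%), the second being Clec4f. No gene was called in liver against eWAT (0.0822%). The genotype effect on Marco was higher in liver than in eWAT by 3.41 ± 0.91 (adjusted p = 0.0308), the 1 call among the 10 genes there (2.83% of all genes), and without knockout liver library 5 at thermoneutrality it was 2.70 (adjusted p = 0.0917). Leaving out 1 of the 48 libraries lost the call of Adgre1 in 12 fits (adjusted p up to 0.0645), that of Mrc1 against eWAT in 10 (up to 0.0628), that of Marco in 6 and that of Mrc1 against liver in 0. None was called in the genotype effect in liver against BAT (1.48%) or BAT against eWAT (1.06%). With the replicate number as a block, none of the calls of Clec4f and Mrc1 in BAT against eWAT, nor that of Marco, held.

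In fat, Clec4f and Cd5l were low, and their highest values fell in libraries with high hepatocyte markers (Alb, Apoa1, Ttr, Fgb and Apoh). The highest Clec4f value in BAT, 3.93 CPM, was in knockout library 2 at thermoneutrality, which also had the highest Cd5l (6.82 CPM), the highest hepatocyte sum (2041 CPM) and the highest skeletal muscle sum (5422 CPM). The other 3 libraries of its group had 0.0594 to 0.316 CPM of Clec4f. The highest Clec4f value in eWAT, 3.99 CPM, was in knockout library 16 at room temperature, where the hepatocyte sum was also highest (2952 CPM). The housing effect on Clec4f in BAT against eWAT was 4.02 ± 1.14 (adjusted p = 0.0124), and 2.64 (adjusted p = 0.156) without that BAT library.

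Over the 16 libraries of a tissue, which share depth and scaling, the Pearson r of log2 level with log2 hepatocyte sum was 0.93 for Clec4f and 0.77 for Cd5l in eWAT, and 0.71 and 0.90 in BAT. It was 0.74 for Vsig4 and 0.75 for Marco in BAT, but 0.28 and 0.14 in eWAT. For Mrc1 it was 0.36 in BAT and -0.28 in eWAT. Per 10000 CPM of hepatocyte markers, the median Clec4f level was 15.4 CPM in liver, 22.0 in BAT and 14.0 in eWAT. Its libraries ranged from 7.76 to 28.1 CPM in liver, and more widely in fat, from 0 to 58.7 CPM in BAT and 0 to 50.1 CPM in eWAT. For Cd5l the medians were 14.7, 24.0 and 36.6 CPM, for Marco 0.647, 0.505 and 48.5 CPM, and for Mrc1 6.61, 807 and 4391 CPM. The part of liver transcripts in the fat levels was not tested. Marco in eWAT, where the genotype difference was called, had a ratio of 2.66 to 1205 CPM, against 0.0419 to 7.31 CPM in liver. The sum of epididymis markers reached 720 CPM in wild-type eWAT library 18 at room temperature, which held the second Clec4f value of eWAT (3.29 CPM).

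**Figure D5:**
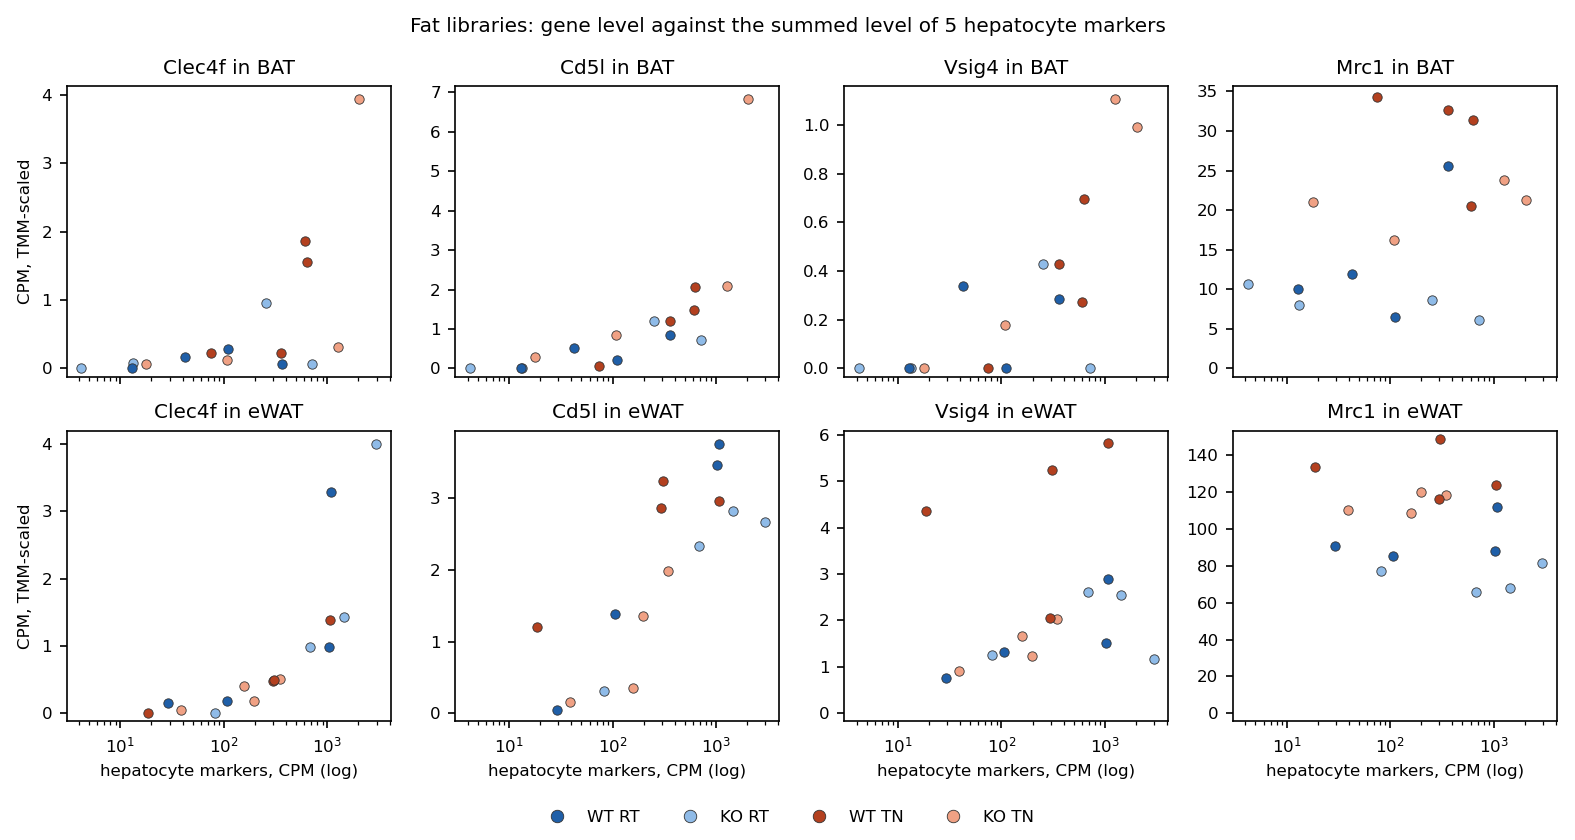
TMM-scaled CPM of Clec4f, Cd5l, Vsig4 and Mrc1 in the BAT and eWAT libraries against the summed CPM of 5 hepatocyte markers (log axis), each point 1 library. Clec4f is near 0 in libraries with a low sum and reaches 3.93 CPM in BAT and 3.99 CPM in eWAT at the highest sums, and Mrc1 has no such order.

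The genes most like each of the 10 were found in the tissue where its mean was highest, by Pearson r of log2(CPM + 0.5) over the 16 libraries, among 12024 genes in liver and 12713 in eWAT. Such r values also reflect the groups, so the r of deviations from group means is given after each. Clec4f was most like the GTPase gene Gimap3 (0.89; 0.78 within groups), Timd4 most like the chemokine Cxcl13 (0.87; 0.89), and Vsig4 most like Sash3, an adaptor of blood cells (0.91; 0.86). Marco was most like the transcription factor Pou2f2 (0.84; 0.87). Cd5l was most like Adgre1 (0.94; 0.93) and then Csf1r, the receptor for colony-stimulating factor (0.93; 0.94). In eWAT, Adgre1 was most like the Fc receptor Fcgr3 (0.96; 0.91), Mrc1 most like Csf1r (0.94; 0.65) and Folr2 most like Cfp, which encodes properdin (0.90; 0.82). Cd163 was most like Sgk3 (0.84; 0.67) and Lyve1 most like Alox5 (0.84; 0.69), lower within groups than the liver pairs.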

How the data were processed

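Total RNA of snap-frozen liver, BAT and eWAT was sequenced as paired-end libraries, per the labels' protocols. The authors deposited raw counts per Ensembl gene, 1 file per library, made with fastp, STAR 2.6.1d, featureCounts 1.5.0-p3 and GRCm38, per the submitters' processing notes; the annotation and strand setting are not given in the sources used here. The 10 genes and the other lists were chosen with earlier results of these data known. Symbols were matched by Ensembl identifier for 52073 of 56748 rows (91.8%). Groups came from the labels.

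Counts were tested on all genes with edgeR 4.0.16 (quasi-likelihood, TMM, minimum count 10, R 4.3.3), within each tissue over its 16 libraries and between tissues over all 48, with Benjamini-Hochberg adjustment and a threshold of 0.05. Genes tested numbered 17594 in liver, 18032 in BAT, 18933 in eWAT and 21910 jointly. Displayed CPM use TMM factors over all 48 libraries. Levels per kb use exon lengths of GENCODE on GRCm38. From other lists, up to 3 called genes per direction and comparison with the largest changes and a mean of at least 1 CPM could be named. Fabp5, a member of the lipid list, falls under that rule.

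Alternatives were RLE scaling, library totals, other filters, DESeq2 1.42.0, the libraries compared alone, each library left out and a replicate block. On simulated counts, log2 changes of 1 and 2 were set in 100 genes each. The test recovered 69% and 88% in liver, 64% and 87% in BAT, and 75% and 92% in eWAT (averaged housing comparison). The changes were set only in genes above a minimum expected count, so these shares do not cover the genes lowest in fat. Depth was 23.7 M to 36.5 M counts (M for mega) in liver, 25.3 M to 39.4 M in BAT and 28.7 M to 43.7 M in eWAT. In the first BAT knockout library at room temperature (replicate 10), 3 counts thus equal 0.0909 CPM before TMM scaling. No 2 libraries of a group agreed within sampling noise. Of 35 pairs of libraries from different tissues with the same replicate number, 12 had deviations correlated over 0.1 (median 0.04). Among 157 pairs with different numbers, 22 did (median -0.009), so the same-number pairs had the higher median. Whether a number is 1 animal was not settled by this check. The main fit did not take the numbers as pairs, and the replicate block is the alternative that does.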

Additional observations from a re-analysis of the deposited data

Results flagged for a closer look

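A library far from the other 3 of its group was found for 12 of 120 combinations of gene and group, where chance gives about 1 in 20. In liver these were Vsig4 in the room temperature knockout library 16 (14.8 CPM, others 23.7 to 24.8) and in the warm wild-type library 1 (29.5 CPM, others 17.7 to 19.5), Mrc1 in the cool wild-type library 18 (60.0 CPM) and Lyve1 in the cool wild-type library 12 (1.94 CPM).

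In BAT, 6 values were apart. Cool knockout library 10 was high in Clec4f (0.963 CPM) and in Vsig4 (0.428 CPM, the others at 0), and warm knockout library 2 was high in Clec4f (3.93 CPM) and Folr2 (5.22 CPM). Cd163 was high in cool knockout library 14 (5.84 CPM), and Marco was 0.0852 CPM, from 2 counts, in cool wild-type library 17, the others at 0. In eWAT, Cd163 was high in cool wild-type library 13 (62.0 CPM, others 40.6 to 43.3) and in cool knockout library 16 (39.7 CPM, others 32.7 to 33.7).

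The effect of warm housing was called different between tissues for 3 genes by the test of the difference. BAT minus eWAT was 4.02 for Clec4f and 0.66 for Mrc1, and liver minus BAT was -1.03 for Mrc1 and -1.09 for Adgre1. The knockout effect on Marco, liver minus eWAT, was 3.41. With the replicate block, both BAT minus eWAT calls and that of Marco were lost. Leaving out 1 of the 48 libraries lost the Adgre1 call in 12 fits and the Clec4f call in 1. The call of Mrc1 in liver minus BAT was lost in 0 of 54 alternatives.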

How the results depend on the processing

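Of 50 pairs of gene and comparison that were called, none changed sign in any alternative run; of 243 uncalled pairs, 59 changed sign in at least 1 and 40 were called in at least 1. Counts of the 10 genes called, given from the reported value to the alternative, moved as follows. With library totals: liver genotype at thermoneutrality 1 to 2; BAT housing in wild type 2 to 5, in knockout 2 to 4, averaged 4 to 7; eWAT housing averaged 1 to 4; the housing effect in BAT against eWAT 2 to 4 and in liver against BAT 2 to 4. With DESeq2: liver genotype at thermoneutrality 1 to 2, liver housing in knockout 0 to 2 and averaged 0 to 1; BAT genotype averaged 0 to 1 and housing averaged 4 to 7; eWAT genotype at room temperature 1 to 2 and at thermoneutrality 0 to 3, housing in wild type 0 to 1 and averaged 1 to 5. With no filter: liver genotype at thermoneutrality 1 to 0, eWAT genotype averaged 3 to 1, the housing effect in liver against BAT 2 to 1, and the genotype effect in liver against eWAT 1 to 0. With RLE scaling and with the 8 libraries compared alone, liver genotype at thermoneutrality went from 1 to 0, and with the latter eWAT housing in knockout from 3 to 0. With at least 1 CPM in 4 libraries no count moved by over 1.5 times.

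Within a tissue no groups share a replicate number, so the replicate block was fitted over all tissues. It took the calls for the housing effect in BAT against eWAT from 2 to 0 (Clec4f 3.26, Mrc1 0.67) and for the genotype effect in liver against eWAT from 1 to 0 (Marco 3.15); the other 7 counts stayed within 1.5 times.

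Leaving out 1 library at a time gave 0 to 2 genes called for liver genotype at thermoneutrality, 0 to 1 for liver housing averaged, 0 to 3 for BAT genotype at room temperature and averaged, 2 to 3 for BAT housing in wild type, 2 to 2 in knockout and 3 to 5 averaged. In eWAT it gave 0 to 2 for genotype at room temperature, 0 to 1 at thermoneutrality and 1 to 3 averaged, and for housing 0 to 3 in knockout and 1 to 4 averaged. Between tissues it gave 8 to 10 for BAT against eWAT and 10 to 10 for both liver comparisons, 0 to 4 (BAT against eWAT) and 1 to 4 (liver against BAT) for the housing effect, and 0 to 2 (liver against BAT) and 0 to 1 (liver against eWAT) for the genotype effect. The other comparisons stayed at 0 to 0. The causes were not tested. Counts under 3 in at least 1 library limit Clec4f, Cd5l, Vsig4, Marco and Timd4 in BAT and Clec4f and Cd5l in eWAT.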
